A study of Marchantia polymorpha with 2 samples.

Results

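The genes described here are 60 genes of the liverwort Marchantia polymorpha that lie in 19 runs of neighbours, with every gene of a run 4-fold or more above, or 4-fold or more below, its mock level in an estradiol library once 10 was added to both values. They come from a deposited table of 16280 genes. A run is 3 or more genes with consecutive numbers on 1 scaffold, where an identifier such as Mapoly0121s0008.1.v3.1 holds a scaffold (Mapoly0121) and a gene number (0008). Genes entered only if they had reads in both libraries and a mean normalized count from 10 to under 10000, and identifiers beginning MapolyY were left out. These conditions kept 12516 genes. The members were chosen by the ratio between the libraries, log2 of (estradiol + 10) over (mock + 10), so their ratios are given as a description and without a test. Below, 2-fold, 4-fold and 8-fold are limits on this ratio with 10 added, unless a counting interval or another setting is named. Ratios given with a counting interval have nothing added.

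Both libraries came from gametophytic thallus, the flat haploid body of the plant, of genotype proEF1:MpKNOX2; proEF1:XVE>>MpBELL1. By this genotype, MpKNOX2 was under the constitutive EF1 promoter in the mock plants too, and MpBELL1 was under XVE, a transcription factor that turns its target promoter on when an estrogen is supplied. Gemmae, the asexual propagules, grew for 10 days at 23°C in 24 h light on Gamborg medium, were moved to 5 μM 17-β-estradiol or to mock medium, and were frozen after 72 h. The mock group and the estradiol group had 1 library each. Plants without the transgenes on estradiol were not analysed here, so a response to estradiol itself and a response to MpBELL1 cannot be told apart. In RNA from whole thallus, fewer cells of a type and less RNA per cell cannot be told apart either.

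KNOX and BELL proteins are homeodomain transcription factors of the TALE class that act as partners. In green algae and in bryophytes such pairs are known for roles in the zygote and in the diploid phase of life. Genes that neighbour each other on a chromosome can be copies of one ancestral gene made by tandem duplication, can share a promoter region between them, or can lie in a stretch of chromatin of one state. This is background and not a result: the files give no sequence, product or strand for the genes in the runs.

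Of the 60 genes, 39 were in 12 runs that were higher in the estradiol library and 21 were in 7 runs that were lower. A ratio of 4-fold or more was found for 4.77% of the kept genes in the higher direction (597 genes) and for 6.07% in the lower direction (760 genes). These shares were fixed by the same ratio that chose the members. A run of 3 was possible only where 3 consecutive numbers were kept, a condition met by 439 of the 597 higher genes and by 536 of the 760 lower ones. Another 104 higher and 126 lower genes formed runs of exactly 2, and 31 consecutive pairs differed 4-fold in opposite directions. Runs of 3 were the usual length, with 17 of 19, and the others had 4 and 5 genes. With both libraries set to equal totals, which moves log2 ratios upward by up to about 0.27 and by less for genes with low counts, runs held 56 higher and 15 lower genes.

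Gene reads summed to 13103037 for estradiol and 15495357 for mock. Deposited values came in steps of 1 read, worth 0.995 normalized counts in the former library and 1.01 in the latter. The number of reads behind each value gave a 95% exact counting interval (Clopper-Pearson) of the ratio of normalized counts. Such an interval covers counting error only. With 1 library per group the spread between plants was not measured, and no difference reported here has a replicate check.

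The longest run was genes 0006 to 0010 of scaffold Mapoly0121, 5 genes that were all higher, and it also had the largest median log2 ratio of the higher runs, 4.62. Gene 0006 had 66.8 normalized counts in mock and 418 in estradiol, a ratio of 6.26 (95% counting interval 4.82 to 8.24). Gene 0007 had 68.8 in mock and 526 in estradiol, a ratio of 7.65 (5.93 to 10.00). These first members were thus close to each other in both libraries. Gene 0008 had 19.2 normalized counts in mock and 2109 in estradiol, a ratio of 110 (70.0 to 182), the largest log2 ratio of any member at 6.18. Gene 0009 had 13.2 in mock and 786 in estradiol, a ratio of 59.7 (34.7 to 113). Gene 0010 had 4.05 in mock (4 reads) and 334 in estradiol, a ratio of 82.6 (32.0 to 305). The run therefore held a pair of genes with ratios below 10.00 followed by 3 genes whose intervals all lay above 30, and the intervals of the pair and of the trio did not overlap.

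The run with the highest estradiol level was genes 0025 to 0027 of Mapoly0125. Gene 0025 had 122 normalized counts in mock and 531 in estradiol, a ratio of 4.34 (3.56 to 5.33). Gene 0026 had 2.02 in mock (2 reads) and 83.6 in estradiol, a ratio of 41.3 with a wide interval of 11.1 to 347. Gene 0027 had 1756 in mock and 16313 in estradiol, a ratio of 9.29 (8.84 to 9.77). In this run a gene barely read in mock lay between genes that were well read there, and the 3 intervals were all apart. The smallest median among the higher runs, 2.28, was found for genes 0018 to 0020 of Mapoly0078. Their mock levels were 75.9, 52.6 and 38.5 normalized counts in gene order and their estradiol levels 1608, 294 and 207. The first gene, at 21.2-fold (16.8 to 27.1), stood above the other members, which were at 5.58-fold (4.14 to 7.64) and 5.38-fold (3.79 to 7.82).

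**Figure D1:**
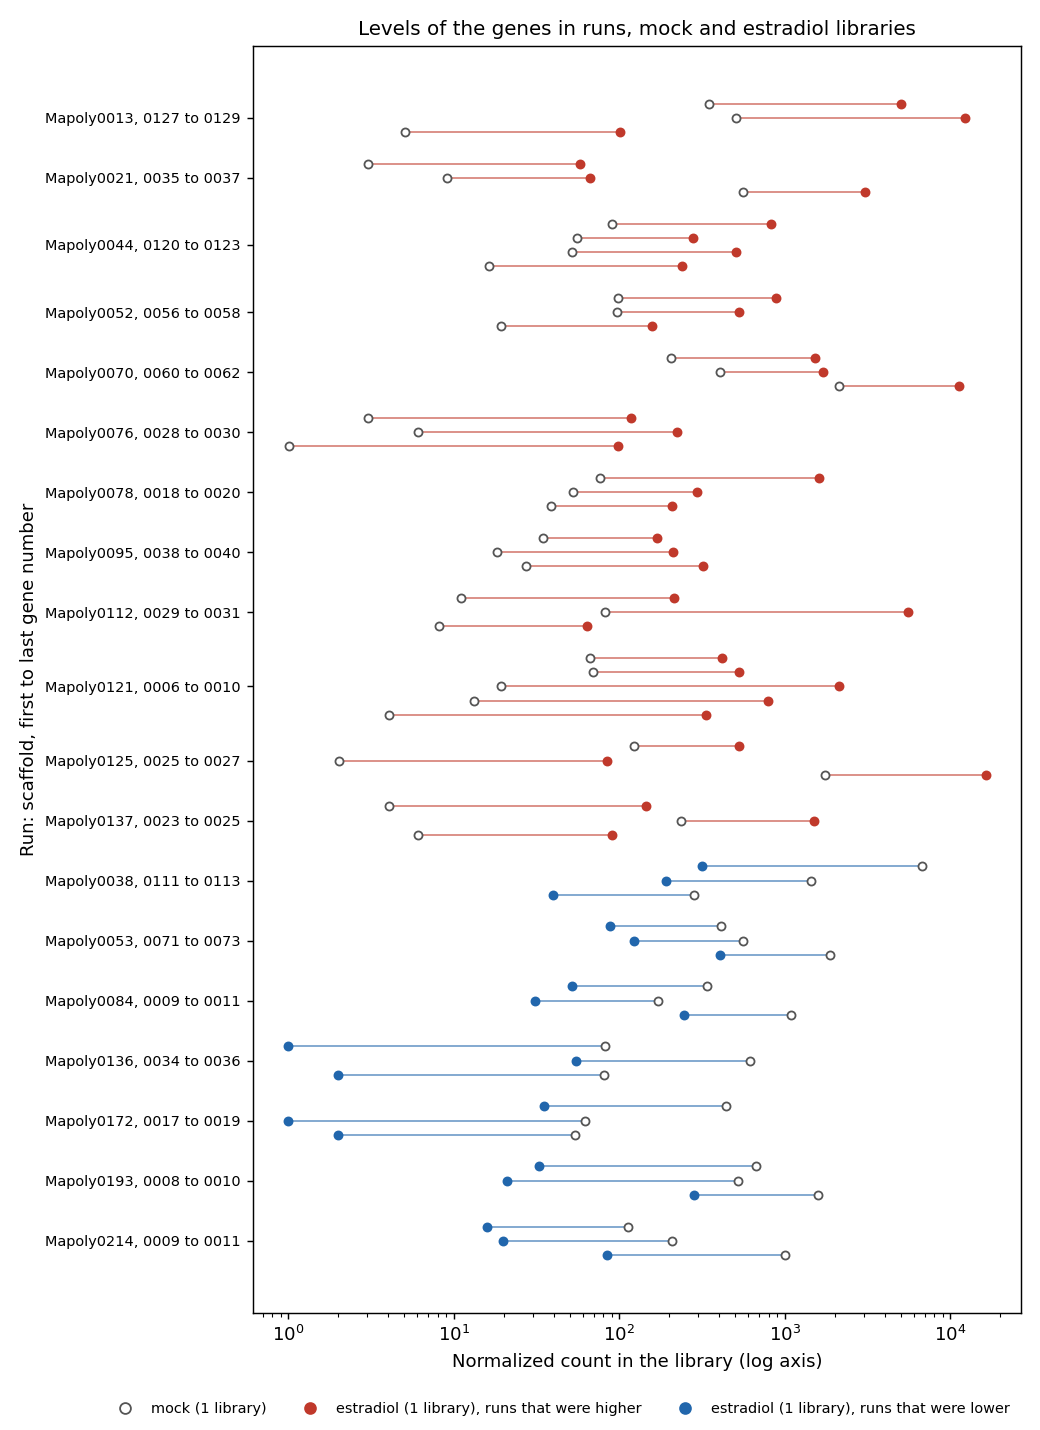
Normalized counts (log axis) of the 60 genes in the mock library (open points) and the estradiol library (filled points), 1 library each, in gene order within each run. Members of a run were often at very different levels, as in Mapoly0125 with 2.02 and 1756 normalized counts in mock.

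The other 9 higher runs differed in their level. Genes 0028 to 0030 of Mapoly0076 were nearly unread in mock, at 3.04, 6.07 and 1.01 normalized counts (3, 6 and 1 reads), and had 118, 222 and 97.5 in estradiol. It was the run whose 3 members all had 10 or fewer mock reads. With 10 added to both values, it was 1 of 2 sets of consecutive genes that formed a run at 8-fold. The other was genes 0008 to 0010 of Mapoly0121. Further runs were past 8-fold only without the 10, such as genes 0127 to 0129 of Mapoly0013 at 14.6, 24.3 and 19.9. Genes 0120 to 0123 of Mapoly0044, the run of 4, had from 16.2 to 90.1 normalized counts in mock and from 239 to 829 in estradiol, with log2 ratios between 2.13 and 3.25. Genes 0056 to 0058 of Mapoly0052 had from 19.2 to 98.2 in mock and from 157 to 885 in estradiol. Genes 0038 to 0040 of Mapoly0095 were the most even of the higher runs in level, from 18.2 to 34.4 in mock and from 169 to 318 in estradiol. These 3 runs thus rested on genes at low but readable levels in mock.

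The remaining 5 higher runs had at least 1 gene above 1000 normalized counts in estradiol, and most of them spanned a wide range of levels. In Mapoly0013, gene 0127 had 346 normalized counts in mock against 5047 in estradiol, gene 0128 had 505 and 12252, and gene 0129 had 5.06 and 101. In Mapoly0112, gene 0030 had 82.0 in mock and 5521 in estradiol, a ratio of 67.3 (54.1 to 84.9). Its neighbours were far lower in estradiol, with 213 for gene 0029 and 63.7 for gene 0031. In Mapoly0021, genes 0035 and 0036 had 3.04 and 9.11 normalized counts in mock and 57.7 and 66.7 in estradiol, whereas gene 0037 had 558 and 3059. In Mapoly0137, gene 0024 had 237 in mock and 1494 in estradiol, and genes 0023 and 0025 on either side of it had 4.05 and 6.07 in mock and 144 and 90.5 in estradiol. The genes of Mapoly0070, 0060 to 0062, were the most abundant in mock among the higher runs, at 206, 403 and 2136 normalized counts, and reached 1528, 1688 and 11209. Over all 39 higher members, mock levels ran from 1.01 to 2136 normalized counts with a median of 38.5, and estradiol levels from 57.7 to 16313 with a median of 334. Mock levels were under 100 for 30 of the 39, and 4 of them rested on 3 or fewer mock reads.

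All 7 lower runs had 3 genes. The largest median in size, a log2 ratio of -3.98, was found for genes 0008 to 0010 of Mapoly0193. Gene 0008 had 668 normalized counts in mock and 32.8 in estradiol, so that mock was 20.3 times estradiol (14.3 to 29.8). Gene 0009 had 519 in mock and 20.9 in estradiol, 24.8 times as much in mock (16.1 to 40.5). Gene 0010 had 1591 in mock and 282 in estradiol, 5.65 times as much in mock (4.97 to 6.43). The first genes of the run overlapped in their intervals, and the third lay apart from both.

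The smallest median among the lower runs, -2.10, was that of genes 0071 to 0073 of Mapoly0053, the most even run of all. Their mock levels were 409, 557 and 1873 normalized counts and their estradiol levels 87.6, 122 and 405, so that mock was 4.67 (3.70 to 5.95), 4.55 (3.73 to 5.58) and 4.63 (4.15 to 5.16) times estradiol. Although the third gene was several times as abundant as its neighbours, the 3 log2 ratios differed by at most 0.08. The highest mock level of a lower run was in genes 0111 to 0113 of Mapoly0038. Gene 0111 had 6738 normalized counts in mock and 317 in estradiol, 21.2 times as much in mock (19.0 to 23.8). Genes 0112 and 0113 had 1428 and 283 in mock and 192 and 39.8 in estradiol, 7.44 (6.39 to 8.69) and 7.12 (5.10 to 10.2) times as much in mock. The abundant first gene differed more than its neighbours, whose intervals overlapped each other but not its own.

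The other 4 lower runs showed 2 kinds of estradiol level. In Mapoly0136, genes 0034 to 0036 had 82.0, 612 and 81.0 normalized counts in mock and 0.995, 54.7 and 1.99 in estradiol. In Mapoly0172, genes 0017 to 0019 had 441, 61.7 and 53.6 in mock and 34.8, 0.995 and 1.99 in estradiol. Each of these runs thus held 2 genes with 1 or 2 estradiol reads. In Mapoly0084, genes 0009 to 0011 had 339, 172 and 1083 in mock and 51.7, 30.8 and 246 in estradiol. In Mapoly0214, genes 0009 to 0011 had 113, 209 and 994 in mock and 15.9, 19.9 and 83.6 in estradiol. Over all 21 lower members, mock levels ran from 53.6 to 6738 normalized counts with a median of 441, and estradiol levels from 0.995 to 405 with a median of 39.8.

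Whether the members of a run shared 1 ratio was described with the counting intervals. All intervals of a run had a ratio in common in 6 of the 19 runs, 1 of them higher (Mapoly0076) and 5 lower (Mapoly0053, Mapoly0084, Mapoly0136, Mapoly0172 and Mapoly0214). In the other 13 runs at least 1 pair of members had intervals that were apart, so that the members differed from each other by more than counting error. Wide intervals make a common ratio easier to find, and in Mapoly0076, Mapoly0136 and Mapoly0172 they came from genes with 1 to 6 reads in the library where they were lower. The log2 ratios within a run spanned a median of 1.12 in the higher runs and 0.92 in the lower runs. The widest spans were 3.88 in Mapoly0112 and 3.70 in Mapoly0121, and the narrowest was the 0.08 of Mapoly0053.

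**Figure D2:**
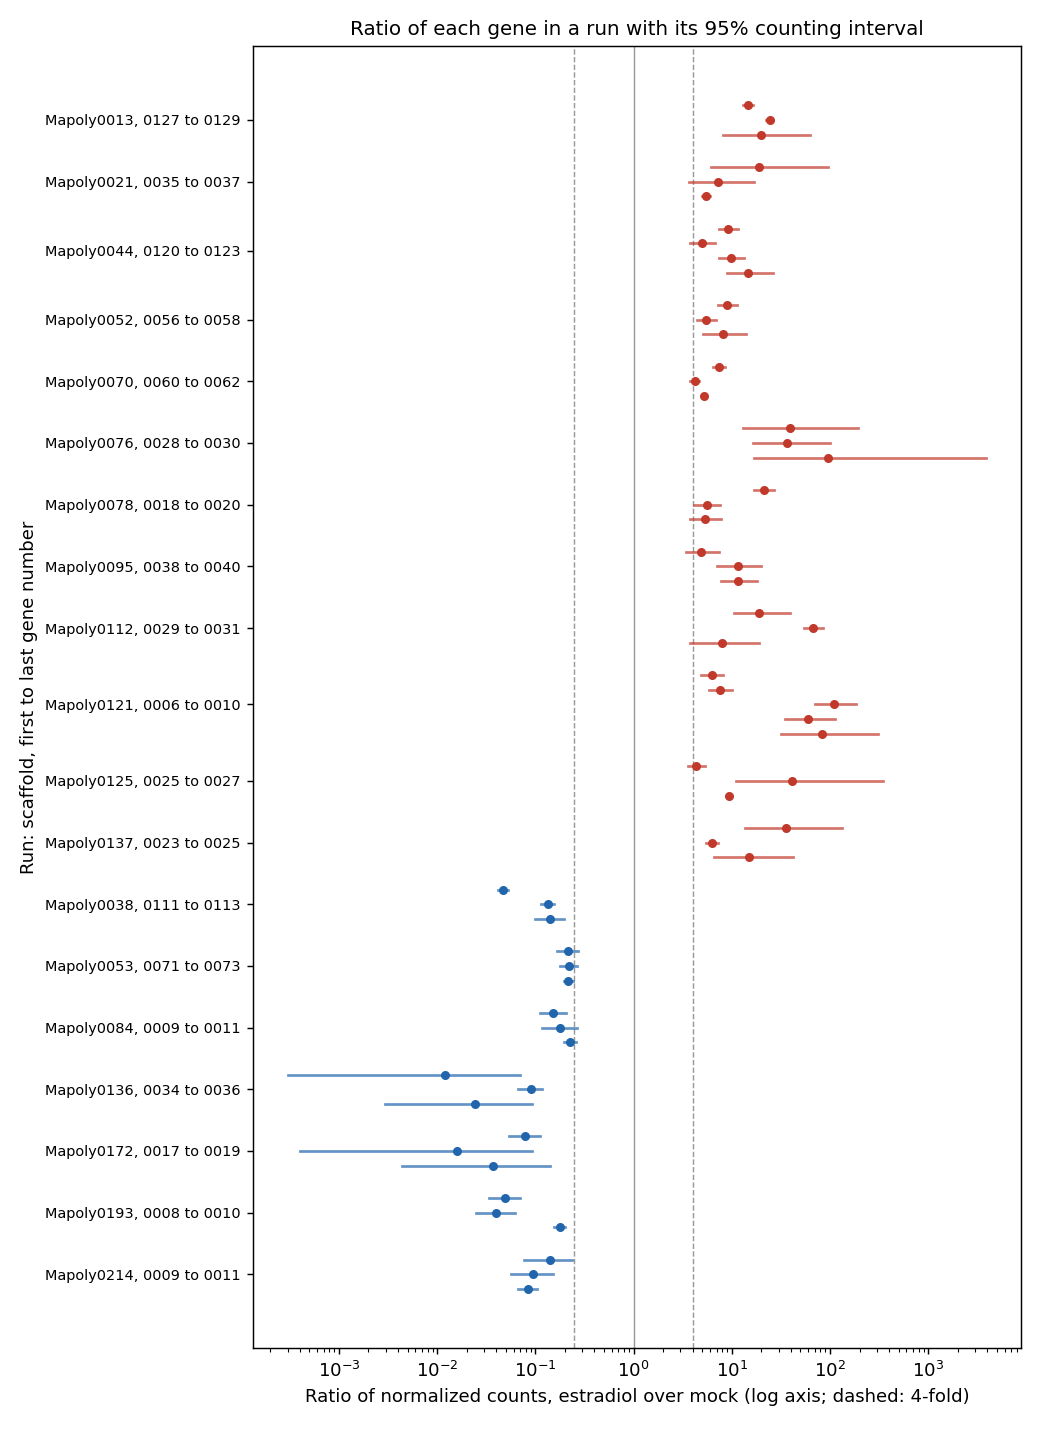
Ratio of normalized counts, estradiol over mock (log axis), of the 60 genes with 95% exact counting intervals, grouped by run, with dashed lines at 4-fold in either direction. The 3 intervals of Mapoly0053 lie on top of each other, whereas the first and last genes of the Mapoly0121 run are far apart.

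The counts of genes in 1 run were also unequal. Counts were not divided by gene length, so a difference in level between genes can reflect length. In the estradiol library the most abundant member of a higher run had from 1.88 to 195 times the count of the least abundant, and in 5 of 12 runs the factor was 10 or more. In the mock library the factor within lower runs went from 3.06 to 23.8 and was 10 or more in 1 of 7. The members kept the same order of level in both libraries in 8 of 12 higher and 5 of 7 lower runs. The largest log2 ratio in size belonged to the middle gene in 5 of the 17 runs of 3, and to a gene at an end in the rest. Which runs these were depended on the pseudocount of 10. With a pseudocount of 1 the largest moved to an end in Mapoly0076 and Mapoly0136, and to the middle gene in Mapoly0125 and Mapoly0172.

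The genes next to the runs were examined by number. A run has 2 ends, and of the 38 ends in all, 25 met a kept gene, 7 a gene with a mean under 10, 1 a gene with no read in one library, and 5 a number that was not in the table. In 2 runs, those of Mapoly0038 and Mapoly0136, the last gene had the highest number listed for its scaffold. By the rule, a kept gene next to a run cannot be 4-fold different in the same direction once 10 is added to both values. In normalized counts alone some were, such as gene 0027 of Mapoly0076 with 1.01 in mock and 27.9 in estradiol. Among the kept genes as a whole, 14.5% were 2-fold or more higher and 17.8% were 2-fold or more lower. Of the 19 kept genes next to a higher run, 6 were 2-fold or more higher and 1 was 2-fold or more lower, with a median log2 ratio toward the run of 0.35, where positive means the run's direction. Of the 6 kept genes next to a lower run, 1 was 2-fold or more lower and 3 were 2-fold or more higher, 2 of them 4-fold, with a median toward the run of -1.07. The rule cuts these genes on the run's own side, so their shares and medians are not comparable with those of all kept genes. Beside lower runs the cut by itself moves values to the higher side, and only 6 genes were there. Beside higher runs the genes leaned to the higher side despite the cut, on small counts.

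From the second to the fifth number out, where the rule sets no limit, 105 of 152 places held a kept gene. Beside higher runs, 13 of 73 such genes (17.8%) were 2-fold or more higher, against 14.5% of all kept genes, and 16 (21.9%) were 2-fold or more lower, against 17.8%. Beside lower runs, 10 of 32 (31.2%) were 2-fold or more lower, against 17.8%, and 6 (18.8%) were 2-fold or more higher, against 14.5%. The median log2 ratio toward the run was -0.06 beside higher and 0.07 beside lower runs, and -0.05 over both. The counts are small, places beside 1 run share a scaffold, and the 2 kinds of run were not tested against each other.

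**Figure D3:**
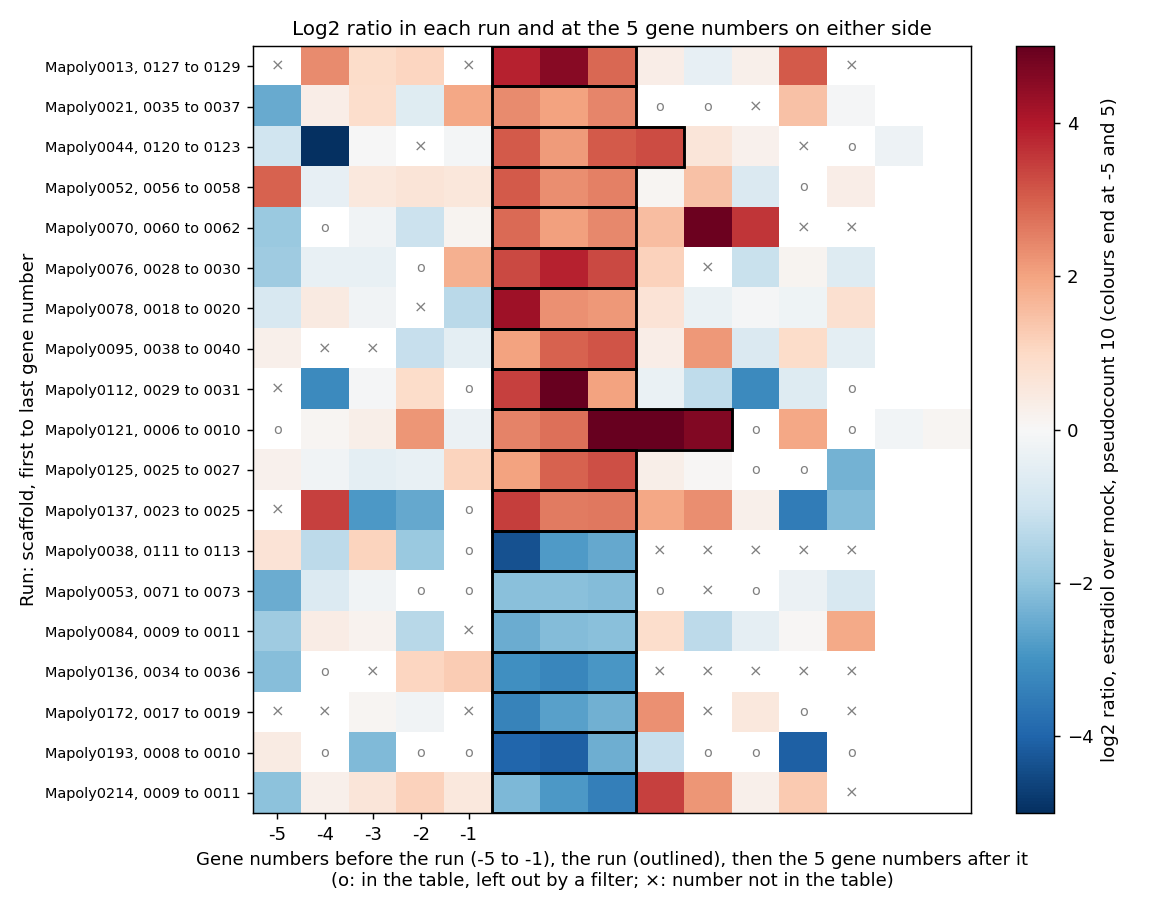
Log2 ratio (colour, estradiol over mock) of the genes of each run, outlined, and of the genes at the 5 numbers on either side, with 1 run per line. Most runs stand beside genes of mixed direction. Beside the lower run of Mapoly0214 most genes were higher in estradiol, with log2 ratios of 3.41 and 2.19 for the first 2 after it.

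**Figure D4:**
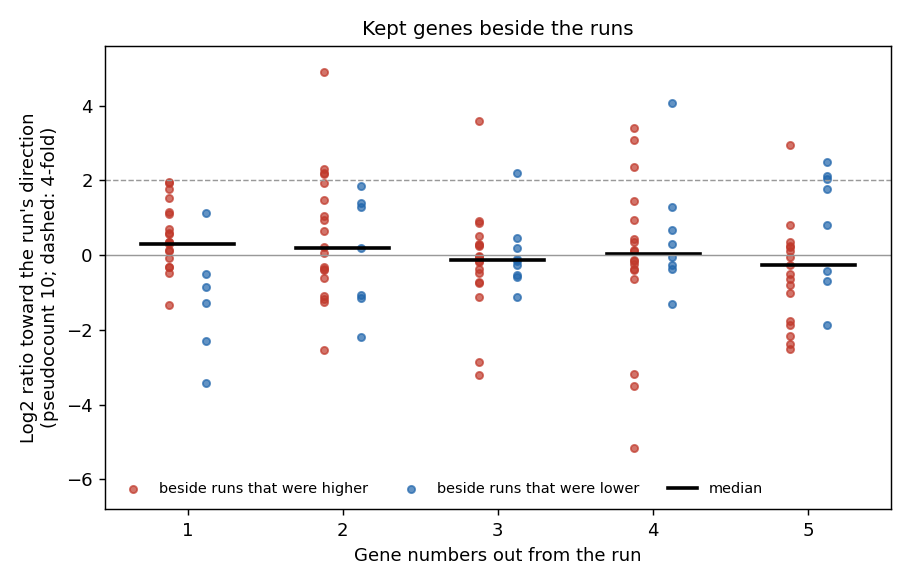
Log2 ratio of kept genes at 1 to 5 numbers from a run, signed so that positive values have the run's direction, with the median over both kinds of run as a bar. No point at distance 1 passes 4-fold in the run's direction because the rule would have joined it to the run, and the pooled medians run from 0.30 at distance 1 to -0.25 at distance 5. From distance 1 to 5, the medians beside higher runs were 0.35, 0.21, -0.06, -0.00 and -0.50, on 17 to 19 genes each. Beside lower runs they were -1.07, 0.19, -0.16, 0.13 and 1.29, on 6 to 9 genes each.

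Some runs belonged to longer stretches. In 6 of 19 runs, consecutive kept genes beyond the run were also at least 2-fold different in its direction. The longest was Mapoly0070, where genes 0060 to 0065 formed a stretch of 6. Gene 0063, which ended the run, had 972 normalized counts in mock and 2847 in estradiol, a log2 ratio of 1.54. Gene 0064 had 71.9 in mock and 2451 in estradiol, with a log2 ratio of 4.91, and gene 0065 had 113 and 1475, with 3.59. The genes after the break thus had larger ratios than the 3 members. In Mapoly0076 the stretch went from 0027 to 0031, and in Mapoly0137 from 0023 to 0027. In Mapoly0121, gene 0005 had a log2 ratio of -0.31 and stood between the run and gene 0004, which had 3060 normalized counts in mock and 13981 in estradiol, a log2 ratio of 2.19.

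Beside other runs lay genes that differed 4-fold in the opposite direction. In Mapoly0214, the lower run 0009 to 0011 was followed by gene 0012 with 18.2 normalized counts in mock against 291 in estradiol, and gene 0013 with 115 and 563, log2 ratios of 3.41 and 2.19. In Mapoly0172, the lower run was followed by gene 0020 with 39.5 in mock and 232 in estradiol, a log2 ratio of 2.29. In Mapoly0137, genes 4-fold lower lay on both sides of the higher stretch 0023 to 0027, with log2 ratios of -2.87 for gene 0020 and -2.55 for gene 0021 before it and -3.49 for gene 0029 and -2.17 for gene 0030 after it. Gene 0019 of that scaffold, before these, was higher with 3.41, and gene 0028 had 0.24. Genes of both directions were thus found within a few numbers of each other on these scaffolds.

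Each of the 19 runs was on a scaffold of its own, out of 462 scaffolds with a kept gene. The 12 scaffolds with a higher run held 756 kept genes outside the run, of which 39 (5.16%) were 4-fold higher, against 4.77% of all kept genes, and 35 (4.63%) were 4-fold lower. The 7 scaffolds with a lower run held 250 kept genes outside it, of which 16 (6.40%) were 4-fold lower, against 6.07% of all kept genes, and 13 (5.20%) were 4-fold higher. Without Mapoly0193 the share in the run's direction was 4.60%. The rest of these scaffolds was thus near the background. Mapoly0193 stood apart, with 8 of its 14 kept genes 4-fold lower and a median log2 ratio of -1.46 for the 11 genes outside the run. On the other 18 scaffolds that median lay between -0.32 and 0.51.

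Compared with the genes that were 4-fold different and in no run, the members were less abundant. The median over genes of the mean normalized count was 173 for the 39 higher members and 256 for the 558 higher genes in no run, and 248 for the 21 lower members against 343 for the 739 lower genes in no run. The median for all kept genes was 372. A log2 ratio of 3 or more in size was found for 18 of 39 higher members (46.2%) and for 34.4% of the higher genes in no run, where 1.68% of all kept genes were 8-fold higher. In the lower direction the shares were 7 of 21 (33.3%) and 21.1%, where 1.30% of all kept genes were 8-fold lower. The log2 ratio reached 9.69 among higher genes in no run against 6.18 among members, and -8.37 against -4.37 among lower genes. The genes in no run were many more, so their extremes can lie further out for that reason alone. The median log2 ratios were 2.62 for higher genes in no run and 2.96 for members, and -2.49 and -2.71 for lower genes. These values come from the ratio that chose the members and were not tested.

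The 39 higher members held 7256 normalized counts in mock and 70304 in estradiol, which was 0.0463% and 0.539% of the respective library. The 21 lower members held 18309 in mock and 2043 in estradiol, or 0.117% and 0.0157%. The genes in runs were thus a small part of either library. The counting interval lay wholly beyond 4-fold for 32 of 39 higher and 17 of 21 lower members, and for 470 of 558 higher and 603 of 739 lower genes that were 4-fold different in no run. It was so for 4.20% and 5.07% of all kept genes, from which nothing is read, since the same ratio chose the members.

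At the edge of the rule, the members with the smallest ratios were gene 0036 of Mapoly0021, just above a log2 ratio of 2, gene 0038 of Mapoly0095 at 2.01 and gene 0031 of Mapoly0112 at 2.03. Just outside it, genes 0080 to 0082 of Mapoly0045 missed the threshold through gene 0080, with 2850 normalized counts in mock, 718 in estradiol and a log2 ratio of -1.97. Genes 0094 to 0096 of Mapoly0059 missed it through gene 0095 at 1.88, and genes 0215 to 0217 of Mapoly0010 through gene 0215 at 1.87. Sets of genes on either side of the threshold thus differed little.

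The authors' deposited table tagged all 39 higher members as up and all 21 lower members as down. It also tagged all 558 higher genes in no run as up and all 739 lower ones as down. The tag therefore does not set the members apart. Among kept genes the authors' deposited table tagged 12.8% as up and 16.7% as down. The tags come from the same 2 libraries and are no independent measure. The lowest probability score of a member in the authors' deposited table was 0.952 for the higher and 0.951 for the lower genes. In that table the 4-fold different genes in no run had scores down to 0.910 and 0.907, minima taken over many more genes.

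The reference table of 18391 genes from assembly MpTak2_v7.1 matched 0 of the 60 members and 0 of all deposited identifiers. For that reason no names, products, positions or sequences are given, the levels of MpKNOX2 and MpBELL1 and markers of the thallus were not checked, and whether members of a run are related copies was not tested. The use of strand in counting and the handling of reads that match several genes are not stated, so the counts of neighbours that overlap or are near-identical would be uncertain.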

How the data were processed

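RNA of 1 mock and 1 estradiol sample was sequenced. Per the submitters' processing notes, FastQC, STAR and HTSeq were used. The sources used here give no versions, settings, genome build, strandedness or normalization method. One file deposited by the authors held normalized counts (a signal of 0 or more for every gene), and dividing by the lowest value above 0 in a column gave whole reads with a largest error of 3.63e-05 reads. The authors' deposited comparison held, per the file headers, a log2 ratio, a probability score and a tag, with 0 replaced by 0.5. Gene numbers were taken to follow gene order along a scaffold, which was not tested.

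Runs were called on log2 of (estradiol + 10) over (mock + 10), which understates the ratio of genes with low counts. The members, and the lists and settings used, were chosen with earlier results of these data known. No test between groups was possible with 1 library each. Runs were described gene by gene if they were the longest of a direction (no single one among the lower runs), had the largest or smallest median log2 ratio in size, or held the highest level in the library where they were higher. Other genes were named for standing next to a run, near the threshold or within the remaining runs, after their values were seen. The script was tested on simulated data with planted runs. The planted runs were longer than the usual run here, were well past the threshold and had no genes with low counts. All other genes were set to no difference, so that test says nothing about how well runs like those reported are found. Alternatives were pseudocounts of 1 and 50, other filters, scalings and thresholds, other run lengths and a gap. Python 3.11.15, NumPy 2.4.6, pandas 2.3.3, SciPy 1.17.1 and matplotlib 3.10.9 were used.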

Additional observations from a re-analysis of the deposited data

How the results depend on the processing

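No paired analysis was possible because a single library stood for either treatment, which also left no replicate to omit. The families shared by members of a run, planned as a result, were not analysed because no identifier was annotated. The 60 genes in 19 runs (39 higher, 21 lower) depended strongly on the rule. A pseudocount of 1 gave 104 genes in 32 runs (65 higher, 39 lower), with all 60 members among them. A pseudocount of 50 left 8 genes in 2 runs, 5 higher (Mapoly0121) and 3 lower (Mapoly0193). A mean of 50 or more left 39 genes in 12 runs, 24 of them higher. A 2-fold threshold gave 413 genes in 124 runs (209 higher, 204 lower) and an 8-fold threshold 6 genes in 2 runs (6 higher, 0 lower). Both thresholds used the ratio with 10 added. Without the 10, mock was 82.4, 11.2 and 40.7 times estradiol for genes 0034 to 0036 of Mapoly0136. Counting intervals wholly past 4-fold gave 33 genes in 10 runs, 18 of them higher. Runs of 4 or more left 9 genes in 2 runs (9 higher, 0 lower). Allowing 1 gene between neighbours gave 111 genes in 34 runs (62 higher, 49 lower). Keeping genes at 0 in one library gave 86 genes in 26 runs (49 higher, 37 lower). Equal totals lost the 6 members of Mapoly0053 and Mapoly0084 and added 17 genes. No minimum mean and a median log2 ratio of 0 left the 60 members as they were. The median log2 ratio of genes 2 to 5 numbers out, toward the run, was -0.05 as reported and 0.10 under equal totals, with a sign that therefore says nothing. Under either pseudocount or either scaling, the log2 ratios of the members had sizes from 0.97 to 6.70. No sign could change: a pseudocount is added to both values, and the scalings moved log2 ratios by far less than 2. With a pseudocount of 50, 30 of 60 stayed past 4-fold. Leaving out Mapoly0193 from the scaffolds with a lower run was chosen after seeing the data. Depth limits genes with few reads: 11 higher and 4 lower members had 10 or fewer reads in the library where they were lower.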

Other observations

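Runs also appeared among genes that the conditions of the rule left out. With no upper limit on the mean, genes 0049 to 0052 of Mapoly0114 formed a lower run of 4 that held very abundant genes. Gene 0049 had 59430 normalized counts in mock against 14666 in estradiol, and gene 0051 had 22405 and 3258, a log2 ratio of -2.78. Genes 0050 and 0052 between and beside them had 1707 and 889 in mock and 202 and 211 in estradiol. Genes 0002 to 0004 of Mapoly0041 formed another, through gene 0003 with 48091 in mock and 11987 in estradiol. Both runs were thus among genes lower in estradiol, and they have the same single pair of libraries behind them.

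Genes with no read in one library lengthened or made other runs. On Mapoly0193, gene 0007 next to the run had 67.8 normalized counts in mock and 0 in estradiol, where a count of 0 allows a level of up to 2.99 normalized counts (3 reads). Further along the same scaffold, genes 0013 to 0017 had 1470, 648, 541, 173 and 85.0 in mock and 0, 28.9, 0, 0 and 11.9 in estradiol. The scaffold thus held 2 neighbouring groups of genes read mostly in mock. On Mapoly0203, genes 0005 to 0008 had 514, 60.7, 290 and 507 in mock and 26.9, 0, 0.995 and 1.99 in estradiol. On Mapoly0003, genes 0187 to 0190 had 2.02, 665, 0 and 3.04 in mock and 136, 4767, 48.8 and 83.6 in estradiol. These genes were named after their values were seen.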
